A study of Mus musculus with 24 samples.

Results

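The potassium channel genes are the 94 protein-coding genes of the mouse annotation used here (GENCODE vM1 on NCBIM37, which is the mm9 assembly) whose symbol begins with Kcn, out of 22225 protein-coding symbols. They were chosen by name alone, and the letters between Kcn and the first digit give the subfamily. Open chromatin was measured by ATAC-seq, in which a transposase cuts and tags accessible DNA, in 24 mouse libraries. Each peak list stands for 1 neuron class at 1 age and was called on its 2 pooled replicates, so that 12 lists were compared.

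All samples were labelled C57BL/6, the study's methods give a mixed C57BL/6J background, and all animals carried the Ai14 allele, a tdTomato reporter that stays silent until Cre recombinase acts on it. One class carried Cux2-CreERT2, a tamoxifen-inducible Cre placed in the Cux2 locus, which labels callosal projection neurons of layers 2/3 (Cux2 CPNs). The other carried Tle4-2A-CreERT2, which labels corticothalamic projection neurons of layer 6 (Tle4 CThPNs). In both, 4-hydroxytamoxifen was given to the pregnant mothers, and tdTomato-positive cells were sorted from somatosensory and motor cortex at E18.5, P1, P3 and P7 (early) and at P21 and P48 (late). Each library was a pool of animals of both sexes, and the late ages were dissociated with a higher papain concentration than the early ones. Stage and dissociation therefore cannot be told apart.

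Potassium channels let potassium leave the cell and so set the resting potential, the length of the action potential and the rate of firing. Voltage-gated pore-forming subunits (subfamilies a, b, c, d, h and q) open on depolarisation, and modifier subunits (f, g, s and v) join them without forming channels of their own. Inward rectifiers (j) and two-pore channels (k) act near rest, channels of the ma, n, t and u subfamilies respond to calcium, sodium or other internal signals, and auxiliary subunits (ab, e, ip and mb) change the gating or the traffic of the pore-forming ones. Cortical neurons are known to change their complement of these channels as their firing matures after birth.

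Examples of distal regions from some of the region categories defined here are shown first, from the mm9 plus strand, 5′ to 3′. Overlapping peaks from the 12 lists were joined into 85867 regions, and 608 of them lay within 50 kb of a transcription start site (TSS) of a potassium channel gene. Shared-early regions were held by no late list and by 2 or more early lists in each class, and shared-late regions by both late lists of each class and by no early one. Cux2-specific or Tle4-specific regions were held by 4 or more lists of that class and by none of the other. Of each region the 300 bases around its middle are given, with capitals for any match to AP-1 (TGANTCA), CRE (TGACGTCA), a NeuroD-type E-box (CAGATGG) or an SP/KLF GC box (GGGCGGG) on either strand.
Shared-late, upstream of Kcnf1, chr12:17191109-17191408: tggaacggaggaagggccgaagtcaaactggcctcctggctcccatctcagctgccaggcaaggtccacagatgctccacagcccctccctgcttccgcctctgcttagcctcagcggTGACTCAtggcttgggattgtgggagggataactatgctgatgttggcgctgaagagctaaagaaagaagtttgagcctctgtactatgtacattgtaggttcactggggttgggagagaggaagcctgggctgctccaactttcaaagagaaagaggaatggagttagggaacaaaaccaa
Shared-late, downstream of Kcnf1, chr12:17147488-17147787: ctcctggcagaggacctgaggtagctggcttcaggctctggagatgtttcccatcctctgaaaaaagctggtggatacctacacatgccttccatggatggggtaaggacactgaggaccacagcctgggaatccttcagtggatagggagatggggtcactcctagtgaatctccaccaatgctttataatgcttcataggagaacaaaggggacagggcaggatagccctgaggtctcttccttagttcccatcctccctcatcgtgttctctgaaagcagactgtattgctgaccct
Shared-late, upstream of Kcna5, chr6:126519865-126520164: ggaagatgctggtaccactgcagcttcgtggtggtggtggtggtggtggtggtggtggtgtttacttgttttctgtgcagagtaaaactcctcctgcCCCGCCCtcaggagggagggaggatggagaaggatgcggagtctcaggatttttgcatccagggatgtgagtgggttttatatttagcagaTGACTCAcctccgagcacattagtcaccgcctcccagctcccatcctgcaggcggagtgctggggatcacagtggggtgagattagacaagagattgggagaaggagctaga
Cux2-specific, at Kcnip4, chr5:48900505-48900804: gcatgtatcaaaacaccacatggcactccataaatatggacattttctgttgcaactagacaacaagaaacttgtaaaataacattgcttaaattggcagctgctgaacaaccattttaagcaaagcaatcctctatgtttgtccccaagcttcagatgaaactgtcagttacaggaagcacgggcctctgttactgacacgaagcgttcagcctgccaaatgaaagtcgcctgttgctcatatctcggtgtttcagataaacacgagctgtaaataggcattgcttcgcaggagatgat
Cux2-specific, downstream of Kcnn3, chr3:89500389-89500688: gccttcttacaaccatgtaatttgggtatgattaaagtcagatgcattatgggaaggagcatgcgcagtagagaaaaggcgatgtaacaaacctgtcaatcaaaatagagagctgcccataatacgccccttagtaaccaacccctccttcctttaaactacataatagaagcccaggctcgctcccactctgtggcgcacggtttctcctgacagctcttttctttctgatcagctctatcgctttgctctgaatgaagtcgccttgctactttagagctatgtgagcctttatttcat
Tle4-specific, downstream of Kcnn3, chr3:89508073-89508372: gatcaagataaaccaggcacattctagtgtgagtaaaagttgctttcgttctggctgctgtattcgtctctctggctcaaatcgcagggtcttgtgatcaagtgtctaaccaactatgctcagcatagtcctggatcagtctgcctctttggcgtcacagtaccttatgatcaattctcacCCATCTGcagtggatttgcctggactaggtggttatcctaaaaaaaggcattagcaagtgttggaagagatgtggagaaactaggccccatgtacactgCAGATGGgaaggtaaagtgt

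The shared-late sequences upstream of Kcnf1 and of Kcna5 each hold 1 AP-1 match, and the latter also holds 1 GC box. The Tle4-specific sequence holds 2 E-box matches, and the other three hold none of the 4 motifs. The shared-early region of highest rank lies in an annotated UTR and is described without its sequence.

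The lists differed in length, which touches every count below. Cux2 lists held 21758 to 45649 peaks and Tle4 lists 6540 to 22443. The longest Cux2 lists and the shortest Tle4 lists were the late ones. Read depth per library is unknown from the lists, no value has a replicate error, and the ages are the only repeats, so spread is given over lists. A bulk peak also cannot separate fewer cells with an open site from a weaker site in every cell. The labelled classes were compared with marker genes. The Tle4 promoter held a peak in all 12 lists, and the Cux2 promoter in 2 early and 2 late Cux2 lists and in no Tle4 list. Of 5 interneuron markers, 4 had a promoter peak in at least 1 early Cux2 list and none in any Tle4 list or late Cux2 list. Of 3 astrocyte markers, Gfap had one in all 4 early and 1 late Cux2 list, Slc1a3 in 1 early Cux2 list and Aqp4 in no list. Markers of oligodendrocytes, microglia and endothelium had a promoter peak in at most 1 list each. Within 50 kb the summed count of the 4 oligodendrocyte markers was 6.75 in early and 14.5 in late Cux2 lists, of which Mbp made up 4 and 13, and 5.25 and 2 in Tle4 lists. Those of interneurons (7 and 3.5) and astrocytes (8.5 and 6) were lower in late than in early Cux2 lists. By the paper, the Cux2 line has been reported to label some cortical interneurons as well. From single-cell sequencing of both labelled classes, the paper judged interneuron contamination to have had little effect on its own results. The part of such cells in the values below was not tested here.

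The first comparison asked which potassium channel promoters were open, when and in which class. A promoter peak was a peak that overlapped the 1 kb on either side of any annotated TSS of the gene. In all, 53 of 94 members (56.4%) had one in at least 1 list, against 54.2% of all protein-coding genes. Peaks in every list were rarer: 3 members (3.19%) against 13.2% of all genes. The remaining 41 members had no promoter peak in any list.

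Among the members open in all 12 lists were Kcnab2 (a beta subunit of Kv1 channels) and Kcnn3 (SK3, a small-conductance calcium-activated channel). Fold enrichment of the strongest Kcnab2 promoter peak was 16.9, 16.8, 16.6 and 15 in the early Cux2 lists and 9.27 and 9.04 in the late ones. In the Tle4 lists it was 16.9, 16.8, 13.1 and 13.2 early and 10.8 and 7.89 late. In both classes the 2 late lists lay below all 4 early lists. Kcnn3 ranged from 7.90 to 14.8 over the 12 lists. Fold enrichment is relative to each list's own background, so values are set side by side within a gene and not tested.

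**Figure D1:**
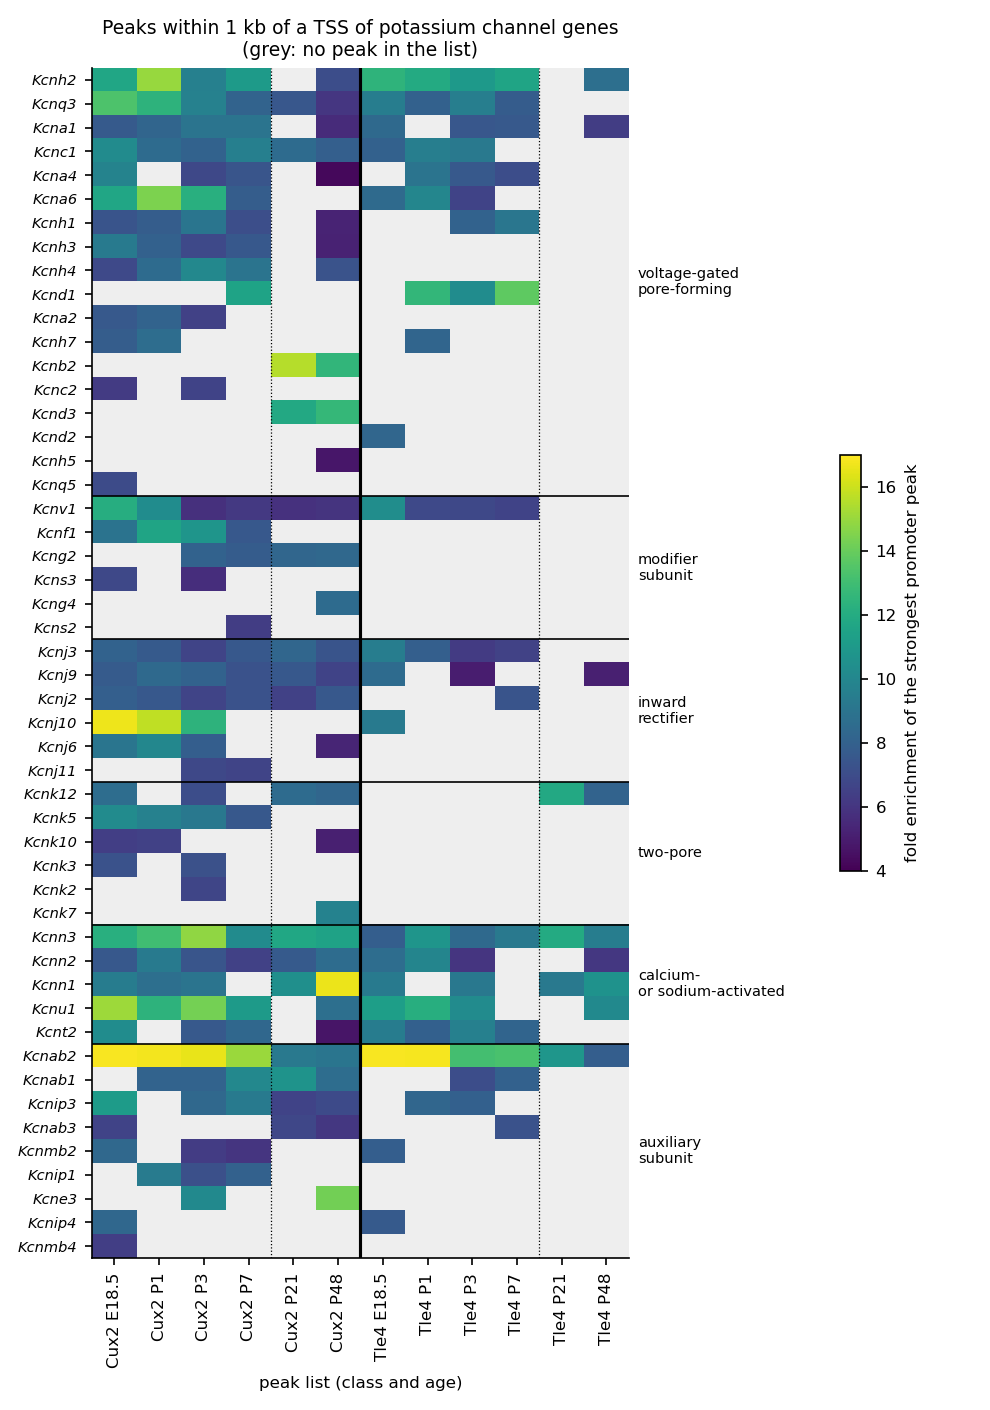
Peaks within 1 kb of a TSS of 50 potassium channel genes that had one in at least 1 list (rows, grouped by role) in the 12 lists (columns). Colour gives the fold enrichment of the strongest promoter peak, grey means no peak, dotted lines part early from late ages and the solid line parts the classes. Grey fills most of the Tle4 P21 column, where 4 of the genes drawn had a peak.

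Fewer members than genes in general had an open promoter in each of the 12 lists. In the early Cux2 lists 38, 27, 38 and 30 members had a promoter peak, and in the late ones 18 and 33. In the Tle4 lists the numbers were 19, 16, 20 and 15 early and 5 and 10 late. As shares this was 35.4% ± 5.98 (SD, 4 lists) of members in early Cux2 lists and 18.6% ± 2.53 in early Tle4 lists. All protein-coding genes stood at 42.8% ± 2.88 and 34.5% ± 5.14 in the same lists. The mean gap between members and all genes over the 12 lists was -11.1 percentage points, and it ranged from -18.8 to -3.39. When every list was cut to its 6538 strongest peaks by p-value, 3 to 7 members kept a promoter peak in each list (3.19 to 7.45%), against 8.53 to 23.2% of all genes. With lists of that length 16 members were open in at least 1 list, against 31.4% of all genes, and 1 in all 12, against 6.03%.

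**Figure D2:**
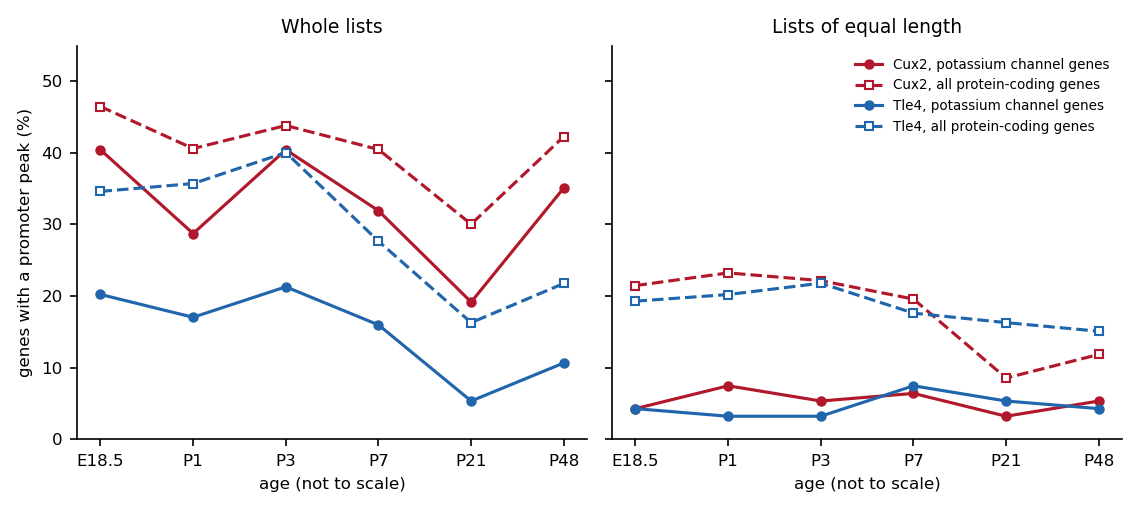
Percentage of potassium channel genes (filled circles, solid lines) and of all protein-coding genes (open squares, dashed lines) with a promoter peak, by class and age, in the whole lists (left) and in lists cut to equal length (right). The potassium channel genes lie below all genes of the same list in all 12 lists, by 3.39 to 18.8 percentage points in the whole lists.

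By promoter sequence, the median GC content was 59.99% for members and 55.7% for all genes, and the median CpG observed/expected ratio, which is high in CpG islands, was 0.591 for members and 0.603 for all genes (1 kb around the TSS with the highest ratio). Among genes with no promoter peak in any list the ratio was 0.427 for members and 0.257 for all genes. Among genes with a ratio of at least 0.6, 32 of 46 members (69.6%) were open in some list, against 84.0% of all such genes. In the late Tle4 lists 8.70% of these members were open on average, against 31.8% of all such genes. Among genes below 0.6 the order was the other way, with 21 of 48 members (43.8%) against 24.2%. These shares are a description and were not tested.

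By class, 25 members had a promoter peak in a Cux2 list and in no Tle4 list (background 11.1%), a count that was 6 with lists of equal length and 10 with a common p-value. For the cut lists no share over all genes was taken. Only Kcnd2 (Kv4.2, an A-type channel of dendrites) had one in a Tle4 list alone (background 0.684%). The Kcnd2 case depends on the window: the region 1299 bp upstream of its TSS was held by 2 Cux2 and 2 Tle4 early lists, and only the Tle4 E18.5 peak reached into the 1 kb. Cux2-specific promoters numbered 6 (6.38%, background 1.89%): Kcnh3, Kcnh4, Kcnf1, Kcng2, Kcnj6 and Kcnk5. None was Tle4-specific (background 0.0495%). When the lists were cut to equal length, or to a common p-value, no member was Cux2-specific. Without Cux2 E18.5, P1 or P7 there were 3 such members, and without Cux2 P3 there were 2.

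Kcnh3 and Kcnh4 encode channels of the ether-à-go-go-like group, and their promoters were open in the 4 early Cux2 lists and at P48. The strongest Kcnh3 peaks of the lists lay at 2 sites of the promoter. One was that of E18.5, P1 and P7 (fold enrichment 9.30, 8.03 and 7.56) and the other that of P3 and P48 (6.85 and 5.22). The E18.5 list held 2 Kcnh3 promoter peaks, of which the stronger is given. Neither site alone was held by enough lists to be Cux2-specific. Kcnf1 (Kv5.1, a modifier of Kv2 channels) and Kcnk5 (an acid-sensitive two-pore channel) were open in the 4 early Cux2 lists only, at 7.56 to 11.6 and 7.56 to 10.2. Kcnj6 (GIRK2, a G-protein-gated inward rectifier) was open at E18.5, P1, P3 and P48, at 9.06, 10.0, 7.87 and 5.37. Kcng2, a modifier subunit, was open at P3, P7, P21 and P48, at 7.78 to 8.41. Its annotated model on chromosome 18 is short, so that its TSS is uncertain.

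By stage, 20 members had promoter peaks in early lists only (background 10.7%) and 5 in late lists only (Kcnb2, Kcnd3, Kcng4, Kcnh5 and Kcnk7; background 2.89%). One member, Kcna6 (Kv1.6), was shared-early (background 3.28%), and none was shared-late (background 0.027%). Fold enrichment of the Kcna6 promoter peak was 11.7, 14.4, 12.2 and 7.85 in the early Cux2 lists and 8.51, 9.97 and 6.6 in Tle4 lists at E18.5, P1 and P3. Without the Cux2 P48 list 4 members were shared-early. The 2 members open in both late Cux2 lists and no other list (background 0.913%) were Kcnb2 (Kv2.2, a delayed rectifier), at 15.6 and 12.6, and Kcnd3 (Kv4.3, an A-type channel), at 11.9 and 12.7. Their peaks were among the stronger ones of their lists, with mean percentile ranks of 90.3 and 81.3. These peaks lay at an annotated TSS near the 3′ end, not at the 5′ start of the gene. Kcnb2 spans 15302533 to 15701710 on the plus strand, and its P48 peak lay at 15700118 to 15700916. Kcnd3 spans 105255248 to 105476920 on the plus strand, and its strongest P48 peak lay at 105470858 to 105471383. Kcnk12, a two-pore gene, was open in both late lists of both classes and in 2 early Cux2 lists.

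The second comparison counted peaks within 50 kb of any TSS of a gene, which takes in possible distal elements. Of the 94 members 93 had such a peak in at least 1 list and were tested with 19602 genes in all. The exception was Kcnj13. Windows of neighbouring members overlap, and 10 members share regions with another, most of all Kcnj9 and Kcnj10, whose TSSs lie 11947 bp apart and which share 13 regions. On average members had 2.33 ± 0.448 peaks in early Cux2 lists and 3.4 ± 0.692 in late ones. In Tle4 lists they had 1.51 ± 0.197 early and 0.803 ± 0.308 late (mean ± SD over lists). The mean over members divided by the mean over all genes was 1.29 and 1.24 in the late Cux2 lists, 0.876 to 1.13 in the early Cux2 lists and 0.889 to 1.05 in the Tle4 lists.

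Late was compared with early by an exact two-sided permutation test per gene, over all placings of the late labels within classes, with Benjamini-Hochberg adjustment over all 19602 genes. No member passed an adjusted p of 0.05, and neither did any other gene (background 0%). The smallest p the design allows is 0.00444, and 1743 genes would have had to reach it, where 410 did. At an unadjusted p under 0.05 there were 12 members (12.9%, background 14.6%). Of these, 7 were higher late (background 4.15%) and 5 lower late (background 10.5%). Without Tle4 P48 there were 4 in all. The median difference over the members tested was 0 peaks, and -0.125 over all genes. Both late lists lay above all early lists in both classes for 2 members, Kcnf1 and Kcnj5 (background 0.505%), and below in none (background 1.74%). Without Tle4 P21, 5 members were higher late in both. An order without overlap in both classes puts the observed placing at one extreme, so the small p of such a member restates it.

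Kcnf1 lies on chromosome 12 at 17178908 to 17183694, minus strand. In the early Cux2 lists it had 4, 3, 4 and 5 peaks within 50 kb, and 7 and 9 in the late ones. In the Tle4 lists it had 0, 2, 1 and 0 early and 3 and 4 late. The late lists lay above every early list of their class, by 3.38 peaks on average (exact permutation p = 0.00444, adjusted p = 0.212). In lists of equal length the counts were 0, 1, 0 and 0 early and 2 and 3 late for Cux2, and 0 in all 4 early lists and 3 and 4 late for Tle4, a difference of 2.88 with the same p. The members higher late in both classes with lists of that length were 3, Kcna5, Kcnf1 and Kcnk13 (background 1.29%).

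Around Kcnf1 some regions were held by early and late lists, and others by one stage alone. The promoter region itself was open in the 4 early Cux2 lists and in no late list. A region 7564 bp upstream of the TSS, on chromosome 12 at 17190903 to 17191614 and in no annotated gene, was held by the 4 late lists only. Its fold enrichment was 13.7 and 16.1 in the late Cux2 lists and 13.8 and 13.7 in the late Tle4 lists. This is the first sequence printed above. A further intergenic region 35351 bp downstream of the TSS (17147013 to 17148261) was also shared-late, at 9.91 and 15.6 in Cux2 and 11.7 and 8.35 in Tle4.

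Kcnj5 (GIRK4, another G-protein-gated rectifier) had no peak in any early list, 2 and 1 in the late Cux2 lists and 1 and 1 in the late Tle4 lists, a difference of 1.25 (exact permutation p = 0.00444, adjusted p = 0.212). With so few peaks its call depends on the window: at 100 kb the difference was 0.50, with an exact permutation p of 0.40. Kcna5 (Kv1.5) had none in the early Cux2 lists and 1 and 3 late, and in the Tle4 lists 0, 0, 1 and 0 early and 1 and 2 late.

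**Figure D3:**
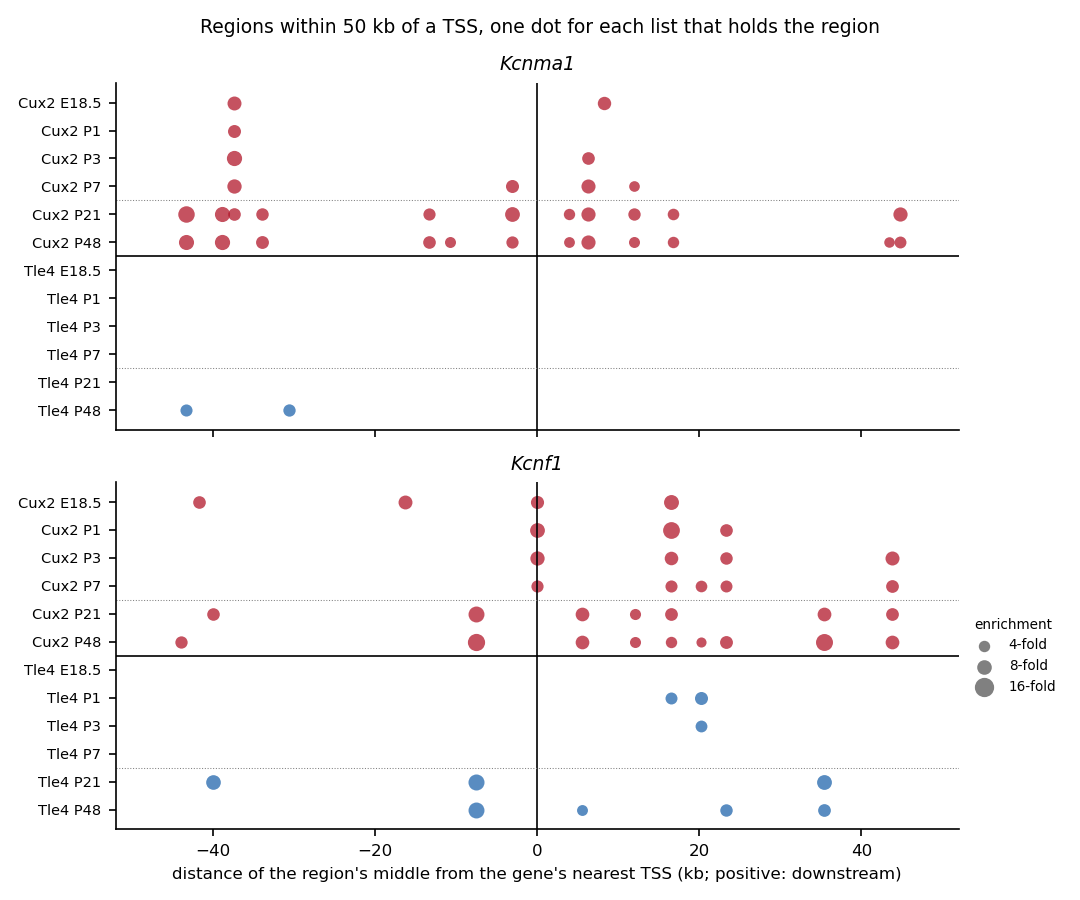
Regions within 50 kb of a TSS of Kcnma1 (top) and Kcnf1 (bottom), by the distance of the region's middle from the nearest TSS in kb, with 1 row for each list. Each dot is a list that holds the region, its size follows fold enrichment, Cux2 is red and Tle4 blue, and dotted lines part early from late ages. Kcnf1 has regions at -7.564 kb and 35.351 kb in the 4 late lists and in no early list, while the dots of Kcnma1 lie almost all in Cux2 rows.

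Within the classes the direction differed. In Cux2 both late lists lay above all 4 early lists for 23 members (24.7%, background 18.1%) and below for 2, Kcnh7 and Kcnk5 (background 5.43%). In Tle4 they lay below for 21 members (22.6%, background 21.1%) and above for 2, Kcnf1 and Kcnj5 (background 1.11%). A class by itself cannot give an exact p below 0.0667, so these counts carry no test. Without the Cux2 P21 list 38 members were higher late in Cux2. The list lengths moved in the same directions. With lists of equal length the counts were 10 of 73 members for Cux2 higher late (background 6.10%) and 7 for Tle4 lower late (background 6.41%). Of the 30 voltage-gated pore-forming genes, 9 were among the 23 and 7 among the 21. The numbers were 4 and 4 of 15 inward rectifiers, 3 and 1 of 14 two-pore genes and 3 and 1 of 10 modifier subunits. Of 8 calcium- or sodium-activated genes they were 3 and 1, and of 16 auxiliary subunits 1 and 7. The roles differ in size, and no test was run by role.

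The widest stage difference among the members was at Kcnma1 (BK, the large-conductance channel opened by calcium and voltage together), on chromosome 14 at 24117983 to 24622526, minus strand. In the early Cux2 lists it had 2, 1, 2 and 4 peaks, and 11 and 12 in the late ones. The Tle4 lists had none at E18.5, P1, P3, P7 and P21 and 2 at P48. The difference over the classes was 5.12 peaks (exact permutation p = 0.0222, adjusted p = 0.237). No list had a Kcnma1 promoter peak: 14 of its 15 regions lay in introns of the gene and 1 was intergenic. Of the 15, 8 were held by late Cux2 lists alone. Lists of equal length held 0, 0, 0 and 1 early and 2 and 0 late for Cux2.

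Kcnd3 had 5, 5, 6 and 6 peaks in the early Cux2 lists, 11 and 10 in the late ones, and 2 or 3 in each Tle4 list. Its late Cux2 lists lay above the early ones without overlap, but with lists of equal length they lay below, at 2 and 2 against 3, 3, 3 and 4. Kcnn2 (SK2) had 3, 2, 3 and 3 early and 5 and 4 late in Cux2, and 2, 3, 2 and 0 early and 0 and 1 late in Tle4. Kcnc1 (Kv3.1) had 3, 2, 2 and 4 early and 1 and 2 late in Cux2, with no Tle4 peak from P7 on.

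Kcnd2 had 1 or none in each of the 12 lists. Kcnk2 (TREK-1, a two-pore channel) had 1 or none in the Cux2 lists and none in the Tle4 lists. Kcna2 (Kv1.2) had 7, 4, 4 and 3 early and 4 and 5 late in Cux2, and 3, 4, 3 and 3 early and 1 and 1 late in Tle4. Its promoter was open at E18.5, P1 and P3 in Cux2 only.

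**Figure D4:**
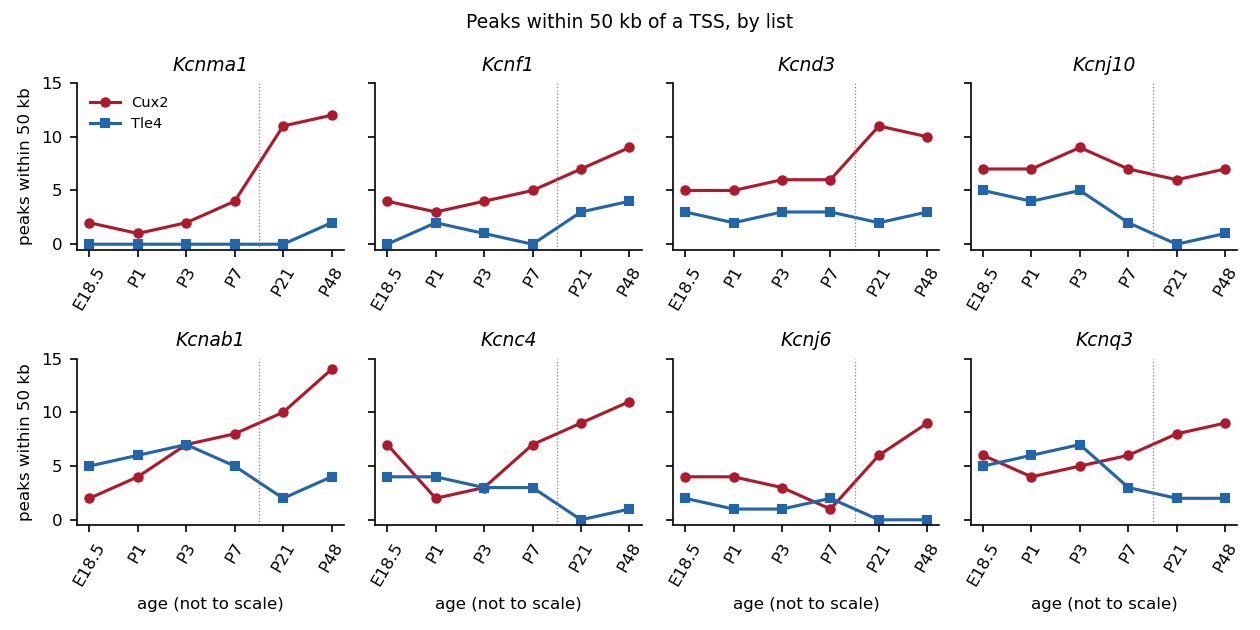
Number of peaks within 50 kb of a TSS (vertical axis) at each age (horizontal axis, not to scale) for 8 potassium channel genes, in Cux2 lists (red circles) and Tle4 lists (blue squares). The dotted line parts early from late ages. In the lower row the late Cux2 counts lie above and the late Tle4 counts below the early counts of their class, and in the upper row Kcnma1 reaches 11 and 12 in the late Cux2 lists.

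The third comparison asked whether the stage change differed between the classes, by an exact two-sided permutation test of the Cux2 change minus the Tle4 change over the same placings. No member passed after adjustment (background 0%), and the smallest adjusted p among all genes was 0.174. At an unadjusted p under 0.05 there were 18 members (19.4%, background 14.4%), all with the higher change in Cux2 (background 14.3%) and 0 in Tle4 (background 0.102%). There were 10 without Cux2 P1 and 7 without Cux2 P48 or without Tle4 P21. The median over members was 1.25 peaks, and 1 over all genes. With lists of equal length the median over members was -0.25 and 5 members had such a p, and with a common p-value the median was 1 and 16 members did. No values over all genes were taken for these cut lists, so they do not show a change particular to the members. In 4 members (Kcnab1, Kcnc4, Kcnj6 and Kcnq3) both late Cux2 lists lay above and both late Tle4 lists below all early lists of their class (4.30%, background 2.71%), and in 7 without Cux2 P21. That order by itself makes the exact p small, so the p values of these members with whole lists restate it.

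Kcnab1 (Kv-beta-1, which lends fast inactivation to Kv1 channels) had 2, 4, 7 and 8 peaks in the early Cux2 lists and 10 and 14 in the late ones, against 5, 6, 7 and 5 early and 2 and 4 late in Tle4. The changes differed by 9.5 peaks (exact permutation p = 0.00444, adjusted p = 0.174). Kcnq3 (Kv7.3) had 6, 4, 5 and 6 early and 8 and 9 late in Cux2, and 5, 6, 7 and 3 early and 2 and 2 late in Tle4, a difference of 6.5 with the same p values. Its promoter was open in all 6 Cux2 lists and in the 4 early Tle4 lists. Kcnj6 had 4, 4, 3 and 1 early and 6 and 9 late in Cux2, and 2, 1, 1 and 2 early and none late in Tle4, a difference of 6 peaks, again with these p values.

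Kcnc4 (Kv3.4), which had no promoter peak in any list, had 7, 2, 3 and 7 early and 9 and 11 late in Cux2, and 4, 4, 3 and 3 early and 0 and 1 late in Tle4. The changes differed by 8.25 peaks (exact permutation p = 0.00889, adjusted p = 0.229). The 4 differences were smaller when the lists were cut. With lists of equal length they were 1.25 for Kcnab1, 0.75 for Kcnc4, 0.50 for Kcnj6 and 1.5 for Kcnq3, with exact permutation p of 0.324, 0.649, 0.467 and 0.378. With a common p-value they were 6.75, 2.75, 2.25 and 4.5, with exact permutation p of 0.00889, 0.0311, 0.04 and 0.0489. For Kcnab1, with 6 TSSs spread over the gene, counting from 1 TSS gave a difference of 2.

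**Figure D5:**
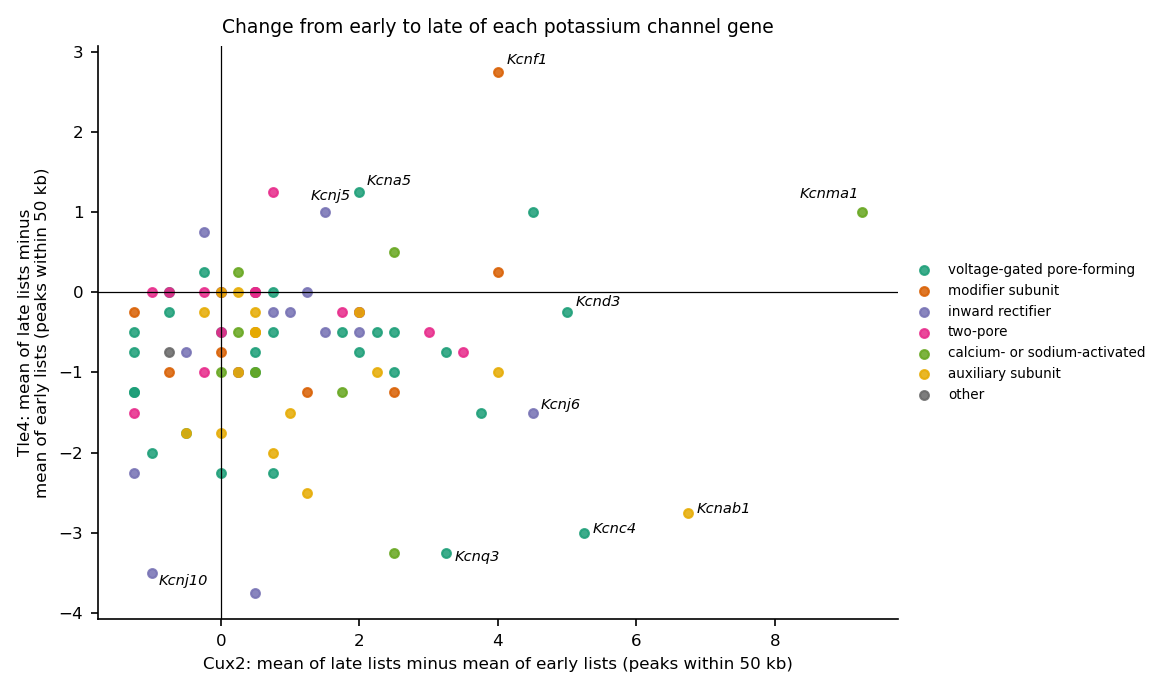
Change from early to late in peaks within 50 kb for the 93 potassium channel genes tested, with the Cux2 change (mean of late lists minus mean of early lists) on the horizontal axis, the Tle4 change on the vertical axis and colour for the role of the gene. Points at the lower right were higher late in Cux2 and lower late in Tle4. Kcnma1 lies farthest right, with 11.5 late against 2.25 early in Cux2, and Kcnf1 lies highest, with 3.5 late against 0.75 early in Tle4.

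The fourth comparison set the classes against each other at matched ages, by exact sign flips over 6 ages (64 patterns, smallest possible p 0.0312). Cux2 counts lay above Tle4 counts at all 6 ages in 18 members (19.4%, background 16.2%) and below in none (background 0.0102%). These 18 are also the members with an unadjusted p under 0.05 (background 16.2%), none passed after adjustment (background 0%), and the smallest adjusted p was 0.186. The median difference was 1 peak both for members and for all genes. With lists of equal length no member was higher in Cux2 at all 6 ages (background 0.0961%), and with a common p-value 1 was (share over all genes not taken).

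Among the largest differences were those at Kcnma1 (5 peaks), Kcnd3 (4.5), Kcnj10 (4.33) and Kcnj9 (4.17), all with an exact sign-flip p of 0.0312 and an adjusted p of 0.186. Per 10000 peaks of the list the differences were 1.16 for Kcnma1 (exact sign-flip p = 0.0312), 0.254 for Kcnd3 (0.438), 0.813 for Kcnj10 (0.0625) and 0.694 for Kcnj9 (0.125). With a common p-value they were 2.67 (0.125), 2.50 (0.0312), 1.83 (0.0625) and 1.83 (0.125) peaks, and with lists of equal length 0.333 (0.75), 1.00 (0.125), 1.00 (0.0625) and 1.17 (0.0625), with the exact p in brackets. None of the 4 kept the smallest p under all 3. Kcnj10 (Kir4.1), best known from astrocytes, had 7, 7, 9 and 7 peaks in the early Cux2 lists and 6 and 7 in the late ones, against 5, 4, 5 and 2 early and 0 and 1 late in Tle4. Most of these regions are shared with the neighbour Kcnj9 (GIRK3). The promoter of Kcnj10 was open at E18.5, P1 and P3 in Cux2, at 16.7 at most, and at E18.5 in Tle4. Of the 3 astrocyte markers above, Gfap was also open in all 4 early Cux2 lists, Slc1a3 in 1 of them and Aqp4 in none. The part of astrocytes in the Kcnj10 values was not tested. Kcnj11 (Kir6.2, the pore of ATP-sensitive channels) had 2 to 5 peaks in every Cux2 list and none in any Tle4 list. Once the lists were cut to equal length, Kcnj11 had 0 peaks in every list of both classes, so this contrast was absent there.

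The regions near potassium channel genes were next sorted by category. Of the 608 regions, 15 were shared-early (2.47%, background 3.05%), 4 shared-late (0.658%, background 0.715%), 30 Cux2-specific (4.93%, background 4.98%) and 1 Tle4-specific (0.164%, background 1.30%). These counts shifted with single lists: 33 regions were shared-early without Cux2 P48, 10 without Cux2 P3, 13 to 19 were Cux2-specific without Cux2 E18.5, P3, P7 or P48, and 12 were shared-late without Tle4 P21. The one Tle4-specific region was lost without any of the 4 early Tle4 lists. Regions held by Cux2 lists only made up 59.7%, against 61.3% of all regions, and those held by late lists only 33.6% against 32.9%. By position, 60 overlapped a promoter of a potassium channel gene, 80 another promoter, 235 an intron and 201 no gene. The share at any promoter was 23.0%, against 16.6% of all regions.

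The 3 shared-early regions of highest rank lay at promoters of Prdx5 and Trmt112 (near Kcnk4), at those of Dpm1 and Mocs3 (near Kcng1), and at the Kcna6 promoter. The shared-late ones besides those of Kcnf1 lay 34441 bp upstream of Kcna5 and in an intron of Tdp1, 35896 bp upstream of Kcnk13. Fold enrichment of the region near Kcna5 was 15.7 and 15.2 in the late Cux2 lists and 11.2 and 10.2 in the late Tle4 lists.

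Kcnn3 has regions of both classes side by side. A region 34098 bp downstream of its TSS, on chromosome 3 at 89500089 to 89500988, was Cux2-specific and open in all 6 Cux2 lists, at 16.4, 15.1, 15.1 and 16 early and 9.02 and 8.28 late. The only Tle4-specific region near any member lies at 89507592 to 89508852, 41782 bp downstream of the same TSS, at 11.4, 11.8, 9.80 and 10.2 in the 4 early Tle4 lists. Both are intergenic. The Cux2-specific region of highest rank overlaps an exon of Kcnip4 (a calcium-binding partner of Kv4 channels), on chromosome 5 at 48900206 to 48901102, and was open in the 4 early Cux2 lists at 19.1, 15.3, 10.7 and 9.47. The third, on chromosome 2 at 63050375 to 63051177, lies 28432 bp upstream of Kcnh7 and was open in 5 Cux2 lists.

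Motif matches were counted in the 300 bases around each region's middle. AP-1, bound by Fos and Jun proteins, was matched in 60 of 204 regions held by late lists only near potassium channel genes (29.4%), and in 14 of 201 held by early lists only (6.97%). Over all regions the shares were 28.8% and 8.18%. The E-box was matched in 18.6% of the late-only and 14.4% of the early-only regions near members, against 16.6% and 13.1% of all such regions. The GC box was matched in 2.45% and 7.96%, against 3.18% and 5.66%. CRE was matched in 7 of the 608 regions (1.15%), against 0.753% of all regions. Among the 30 regions near members that all 12 lists held, none had an AP-1 match, against 5.01% of all regions of that kind. A GC box was matched in 33.3% of these 30, against 39.3% of all regions of that kind.

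For 4 members whose late Cux2 counts were described above, chosen after those counts were seen, the strongest late-only region with an AP-1 match near each is shown, with the match in capitals and 27 bases on either side, so that the letters around it can be compared.
Kcnma1 intron, chr14:24577737-24577797: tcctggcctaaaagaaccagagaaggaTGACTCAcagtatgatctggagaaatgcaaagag
Kcnj6 intron, chr16:95094545-95094605: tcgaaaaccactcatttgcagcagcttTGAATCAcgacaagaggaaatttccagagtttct
Kcnab1 intron, chr3:64919209-64919269: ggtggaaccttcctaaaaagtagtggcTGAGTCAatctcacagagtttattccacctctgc
Kcnq3 intron, chr15:66094565-66094625: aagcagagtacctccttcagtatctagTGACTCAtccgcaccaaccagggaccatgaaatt

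The Kcnma1 region was held by both late Cux2 lists, and the other three by 1 late Cux2 list each. All were in the weaker part of their lists, at mean percentile ranks of fold enrichment of 41.1 (Kcnma1), 27.7 (Kcnj6), 4.33 (Kcnab1) and 8.27 (Kcnq3). A match is a string of letters and does not show that a protein was bound.

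By subfamily, the auxiliary ab genes and the n genes had the most open promoters among subfamilies of more than 1 gene. A peak near any TSS counted, and the 3 ab genes have 6, 12 and 3 annotated TSSs, against a median of 2 over members. In early Cux2 lists 66.7% of the 3 ab genes and 68.8% of the 4 n genes were open on average, and in early Tle4 lists 58.3% and 56.2%. The 14 two-pore genes were open at 19.6% in early Cux2 lists, and none was open in an early Tle4 list. Inward rectifiers were open at 33.3% and 13.3%, and voltage-gated pore-forming genes at 42.5% and 25.8%. In late Tle4 lists the voltage-gated genes stood at 6.67% and the 8 calcium- or sodium-activated genes at 37.5%. Families of few genes give coarse shares, and no test was run.

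Other ion channel families are given for comparison. Sodium channel genes (Scn, 14) were open at 37.5% in early Cux2 and 12.5% in early Tle4 lists, calcium channel genes (Cacn, 26) at 30.8% and 19.2%, and the 4 Hcn genes at 31.2% and 25.0%. The 9 Clcn genes stood at 75.0% and 66.7%. In late Cux2 lists the shares were 25.0% (Scn), 23.1% (Cacn), 0% (Hcn) and 44.4% (Clcn), against 27.1% of the potassium channel genes. Peaks within 50 kb of Cacn genes averaged 3.02 ± 0.530 in early and 4.44 ± 1.60 in late Cux2 lists, and 1.78 early and 0.769 late in Tle4 lists. Peaks within 50 kb of any member made up 7.24 ± 0.403 per 1000 peaks in early Cux2 lists and 7.41 ± 0.546 in late ones. In Tle4 lists the values were 7.15 ± 0.425 and 8.10 ± 0.225 (mean ± SD over lists), so that the share of each list near these genes stayed between 6.76 and 8.26 per 1000.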

How the data were processed

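ATAC-seq libraries of 24 samples (2 replicates of each class and age) were reduced by the authors to 12 peak lists. Per the methods of the study, reads were aligned with Bowtie2 to NCBI37/mm9, duplicates were removed with Picard, peaks were called with MACS2 and filtered by IDR across replicates. A shift of reads for the transposase is not given in the sources used here, and Cux2 peak names carry a "v2" mark of unstated meaning. The deposited columns used were the fold enrichment of each peak over local background and its −log10 p-value, both as the authors' peak caller wrote them. Read counts are not used here, so depth and replicate spread are unknown.

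Peaks on chromosomes 1 to 19, X and Y were used, and 60 mitochondrial peaks were left out. Windows of 1 kb and 50 kb around GENCODE vM1 TSSs were counted per symbol (Python 3.11.15, numpy 2.4.6, pandas 2.3.3, bedtools 2.31.1). Stage was tested by exact permutation within classes and class by exact sign flips over ages, with Benjamini-Hochberg adjustment over all genes, after a test on simulated data. Alternatives were lists of equal length, a common p-value, other windows, 1 TSS per gene, scaling by list length and leaving out each list. Named were the members of the promoter categories, the 4 widest differences of each count without overlap, 10 widely studied genes and the 3 first regions of each category. Kcnab1, Kcnab2, Kcnb2, Kcna5, Kcnc4, Kcnj11, Kcnk12, Kcnk13 and Kcnn3 promoters or counts were named after their values were seen. Some genes of these rules are not reported here. The members and lists were chosen with earlier results of these data known.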

Additional observations from a re-analysis of the deposited data

Results flagged for a closer look

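Early lists were examined for one far from the other 3 by Dixon's criterion, in 40 groups of 4 lists (peaks within 50 kb of named potassium channel genes, and totals per list), and 5 passed it. Chance gives about 1 in 20 groups, and in these small whole numbers a list passes whenever the other 3 are equal. In the early Cux2 lists these were Kcnj10 at P3 (9 peaks) and Kcnn2 at P1 (2 peaks). In the early Tle4 lists they were Kcna2 at P1 (4 peaks), Kcnc1 at P7 (0 peaks) and Kcnd3 at P1 (2 peaks).

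In 4 named genes the late lists lay above all early ones in Cux2 and below them in Tle4. Their unadjusted exact permutation p under 0.05 for the difference of the changes follows largely from that order and is no separate result. The Cux2 change exceeded the Tle4 change by 9.5 peaks at Kcnab1, 8.25 at Kcnc4, 6 at Kcnj6 and 6.5 at Kcnq3. None passed after adjustment over all genes, and list lengths moved in the same directions. All 4 kept an unadjusted p under 0.05 with a common p-value, and none did with lists of equal length. Of the other genes named, Kcng2 (3.75 peaks), Kcnb2 (4), Kcnh5 (3), Kcnk12 (3.5) and Kcnd3 (5.25) also had an unadjusted p under 0.05 for this difference. With lists of equal length the difference turned negative at Kcnk12 and Kcnd3.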

How the results depend on the processing

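No paired analysis was possible because each list pools its 2 replicates, so that replicate numbers could not enter a fit (ages, not replicates, were matched in the class test). Depth is unknown, and with 12 lists an adjusted call needs many genes at the smallest p. With lists of equal length, 16 members had a promoter peak in some list and 6 in Cux2 lists only, 10 were higher late in Cux2, 7 lower late in Tle4 and 0 higher in Cux2 at all ages. Regions then numbered 167, of which 2 were Cux2-specific, and 8.28 peaks per 1000 lay near members. With a common p-value the numbers were 32, 10, 13 lower late in Tle4, 1 higher in Cux2, 372 regions and 3 Cux2-specific. At 100 kb there were 1076 regions, 30 shared-early and 47 Cux2-specific, and 13.6 peaks per 1000. With 1 TSS per gene the share was 6.15 per 1000. Scaled by list length, 8 members were higher in Cux2. Distal peaks alone, tried once the values had been seen, gave 9 lower late in Tle4 and 6.54 per 1000. The cause of these shifts was not tested, and for most of these counts no share over all genes was taken.

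Leaving out 1 list at a time gave 50 to 53 members with a promoter peak, 22 to 28 in Cux2 only, 21 to 30 lower late in Tle4 and 18 to 27 higher in Cux2. Members higher late in Cux2 ran from 23 to 38 (38 without Cux2 P21). Shared-early regions ran from 10 to 33 (10 without Cux2 P3, 33 without Cux2 P48), and Cux2-specific regions from 13 to 35 (19, 13, 14 and 18 without Cux2 E18.5, P3, P7 and P48). With an age left out, sign flips over 5 ages cannot pass 0.05. With lists of equal length the order of late and early Cux2 counts turned at Kcnd3 (2 and 2 late, 3 to 4 early). It was lost at other named genes, among them Kcnc4 (0 and 0 late, 0 to 1 early) and Kcnab1 (2 and 3 late, 1 to 3 early). The same held for Kcnq3 (2 and 3 late, 0 to 3 early), Kcnma1 (2 and 0 late, 0 to 1 early) and Kcnj6 (0 in every Cux2 list). The median of the Cux2 change minus the Tle4 change went from 1.25 to -0.25. Under the alternatives run the signs did not turn for late minus early at Kcnf1 and Kcnj5. Nor did they for Cux2 minus Tle4 at Kcnma1, Kcnd3, Kcnj10 and Kcnj9, or for the difference of the changes at Kcnab1, Kcnc4, Kcnj6 and Kcnq3. The difference of the changes did turn negative at Kcnd3 and Kcnk12 with lists of equal length.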
